A study of Mus musculus with 2 samples.

Results

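The small RNAs described here come from Mir664, Mir1839 and Snora36b, microRNA (miRNA) and small nucleolar RNA (snoRNA) genes that overlap each other or an RNA of the same kind. They were sequenced from mouse (C57BL/6) dendritic cells, sentinel cells of innate immunity, grown from bone marrow for 7 days in the cytokines GM-CSF and IL-4. The cells had been exposed to lipopolysaccharide (LPS), a component of the bacterial outer membrane. The nuclear library held RNA of the pellet with the nuclei, the cytoplasmic library RNA of the remaining fraction, with 1 library of each. Both fractions came from LPS-treated cells, for which the sources used here state neither dose nor duration, and no unstimulated cells were analysed here. The labels do not say how many animals or cultures the cells came from. Members were the deposited sequences that matched a GENCODE vM21 transcript of these genes on the sense strand, over their full length or with up to 3 unmatched bases at the 3′ end. This gave 149 of 538100 distinct sequences, 128 of Mir1839 with 2170 nuclear and 4676 cytoplasmic reads, and 21 of Mir664 or Snora36b with 52 nuclear and 165 cytoplasmic reads. The genes were selected on the nuclear and cytoplasmic read levels in these same libraries, in which miR-664-5p was known to differ, so level ratios of the members are descriptions only.

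H/ACA RNAs guide the conversion of uridine to pseudouridine in other RNAs. They fold into a pair of stems joined by a hinge with the H box and followed by the ACA box, and work in the nucleolus or, as small Cajal body RNAs (scaRNAs), in Cajal bodies. Most miRNAs are instead cut from a hairpin by the nuclease Drosha in the nucleus and by Dicer in the cytoplasm, and then guide Argonaute proteins to messenger RNAs through the seed, bases 2 to 8. In human cells, some H/ACA RNAs have been described as a source of Argonaute-bound small RNAs that need Dicer but not Drosha.

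Both miRNA hairpins overlap the 3′ stem of an annotated H/ACA RNA. Snora36b (ENSMUSG00000077571.1), typed as snoRNA, spans 132 nt at GRCm38 chromosome 1, 185242907 to 185243038, plus strand, in an intron of Rab3gap2, a regulator of Rab GTPases. Mir664 (ENSMUSG00000105770.1) lies at 185242975 to 185243043 of the same strand, so its hairpin starts inside Snora36b and ends just past it. The name Mir1839 covers both a scaRNA of 127 nt (ENSMUSG00000093107.1, chromosome 7, 81529855 to 81529981, plus strand) and a miRNA hairpin (ENSMUSG00000104618.1, 81529916 to 81529988). By this annotation the second precursor is thus a scaRNA and not a nucleolar RNA. It lies in an exon of 1 transcript of the long non-coding RNA 2900076A07Rik and in introns of others. Both H/ACA RNAs are printed in full with the RefSeq mature arms in capitals, since the position of the arms is what separates the products, and the RefSeq (GRCm38.p6) mature miRNAs with the seed in capitals.
Snora36b: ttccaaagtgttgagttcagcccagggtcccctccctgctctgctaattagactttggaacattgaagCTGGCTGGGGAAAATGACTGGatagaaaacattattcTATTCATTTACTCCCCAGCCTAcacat
Mir1839 scaRNA: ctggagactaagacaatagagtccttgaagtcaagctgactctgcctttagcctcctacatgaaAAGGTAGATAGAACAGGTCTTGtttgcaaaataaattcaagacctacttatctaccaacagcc
miR-664-5p: cUGGCUGGggaaaaugacugg
miR-664-3p: uAUUCAUUuacuccccagccua
miR-1839-5p: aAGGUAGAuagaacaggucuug

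Predicted folds placed both 5p arms alike. RNAfold gave 2 outer stems in each RNA, at bases 1 to 60 and 71 to 125 of Snora36b (minimum free energy -51.1 kcal/mol) and at bases 3 to 56 and 67 to 120 of the Mir1839 scaRNA (-41.2 kcal/mol). miR-664-5p covers bases 69 to 89 of Snora36b and miR-1839-5p bases 65 to 86 of the scaRNA, so each starts 2 bases before the second stem. In the fold, 15 of 21 bases of miR-664-5p and 17 of 22 bases of miR-1839-5p were paired. The letters ACA, searched on the RNA strand, stood 3 nt before the 3′ end in both RNAs, as in 33 of 40 Snora transcripts of the annotation (82.5%). The H box letters ANANNA, searched on the RNA strand between the outer stems with up to 2 bases of either, were found at base 58 of the Mir1839 scaRNA and not in that window of Snora36b. They were in that window in 33 of the 39 Snora transcripts that folded with at least 2 outer stems (84.6%).

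The libraries held 2000019 nuclear reads and 2041383 cytoplasmic reads of 18 to 39 nt, so full-length H/ACA RNAs lay outside the measured range and only their fragments were seen. Fragments of snoRNAs were 9.07% of nuclear and 0.290% of cytoplasmic reads, and those of mitochondrial tRNAs 0.0651% of nuclear and 0.184% of cytoplasmic reads. Those of mitochondrial rRNAs differed less, with 0.183% of nuclear and 0.219% of cytoplasmic reads (ratio 0.838). Mitochondrial RNA was therefore present in the nuclear library too. The 14 myeloid miRNA arms that were summed all had reads, 46545 nuclear and 110249 cytoplasmic in sum. Most of these reads were of miR-146b-5p (32225 nuclear and 95878 cytoplasmic) and miR-155-5p (12219 and 9002). The arms miR-142a-5p (3218 and 5565) and miR-142a-3p (393 and 675) were missed by the name search and are not in this sum. Among markers of other cells, the hepatocyte miRNA had 287 nuclear and 24 cytoplasmic reads, and the muscle miRNAs 110 and 7. Those of epithelium had 178 nuclear and 382 cytoplasmic reads, those of erythroid cells 9 and 14, and those of endothelium 7 and 2. Those of fibroblasts or smooth muscle had a nuclear sum of 66.5 RPM (reads scaled to the library total) and a cytoplasmic sum of 32.3 RPM. Markers of liver, muscle and fibroblasts or smooth muscle were thus higher in the nuclear library, and those of epithelium lower. Those of erythroid cells and endothelium had too few reads to give a direction. The source of these reads and their part in the results were not tested. Fewer cells of a type and less RNA per cell cannot be told apart in such bulk samples. With 1 library a group there is no replicate check. Intervals are exact and cover counting error only. They take reads as independent, but PCR copies were not marked by molecular identifiers, so they may be too narrow. A call of higher or lower needs a ratio of at least 2-fold (pseudocount 0.5 reads) and a 95% interval without 1.

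The arms of Mir664 and the rest of Snora36b were higher in opposite libraries. miR-664-5p had 29 nuclear reads and 160 cytoplasmic reads, or 14.5 and 78.4 RPM. Its nuclear over cytoplasmic ratio of RPM was 0.185 (95% interval 0.120 to 0.276), a level 5.41-fold higher in the cytoplasmic library (3.62 to 8.33). Sequences from the remainder of Snora36b had 21 nuclear reads and no cytoplasmic read, or 10.5 RPM against less than the 1.47 RPM that a count of 0 allows (3 reads). Against that floor they were 7.14-fold higher in the nuclear library (lower end of the 95% interval 2.13). With the count of 0 itself the lower end of the interval was 5.32-fold. Of the reads of this gene pair, 40.4% of nuclear reads (21 of 52, 27.0 to 54.9%) and 0 of 165 cytoplasmic reads lay outside the arms, and the count of 0 allows a share of up to 1.82%. The remainder of Snora36b was called higher, on 21 reads. So were 43.1% of 394 annotated small RNAs with at least 50 reads, a minimum it does not reach, 98.3% of 118 snoRNAs among them, and 23.8% of 1529 small RNAs with no minimum.

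The nuclear fragments of Snora36b began at a few places. Those from its first base had 6 nuclear reads in 3 sequences and ended at bases 20 to 26. Those from base 55 or 56, near the end of the first stem, had 15 nuclear reads in 5 sequences. They ran through the hinge and ended at bases 76 to 80, inside the 5p arm, so they include the first bases of the arm but begin upstream of it. A fragment with most reads from each place shows this, the second of them running into the 5p arm.
Snora36b from base 1: ttccaaagtgttgagttcag
Snora36b from base 55: ttggaacattgaagctggctgg
The first had 3 and the second 4 nuclear reads, and neither was in the cytoplasmic library. These counts are small, and each sequence on its own is at or near the floor.

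**Figure D1:**
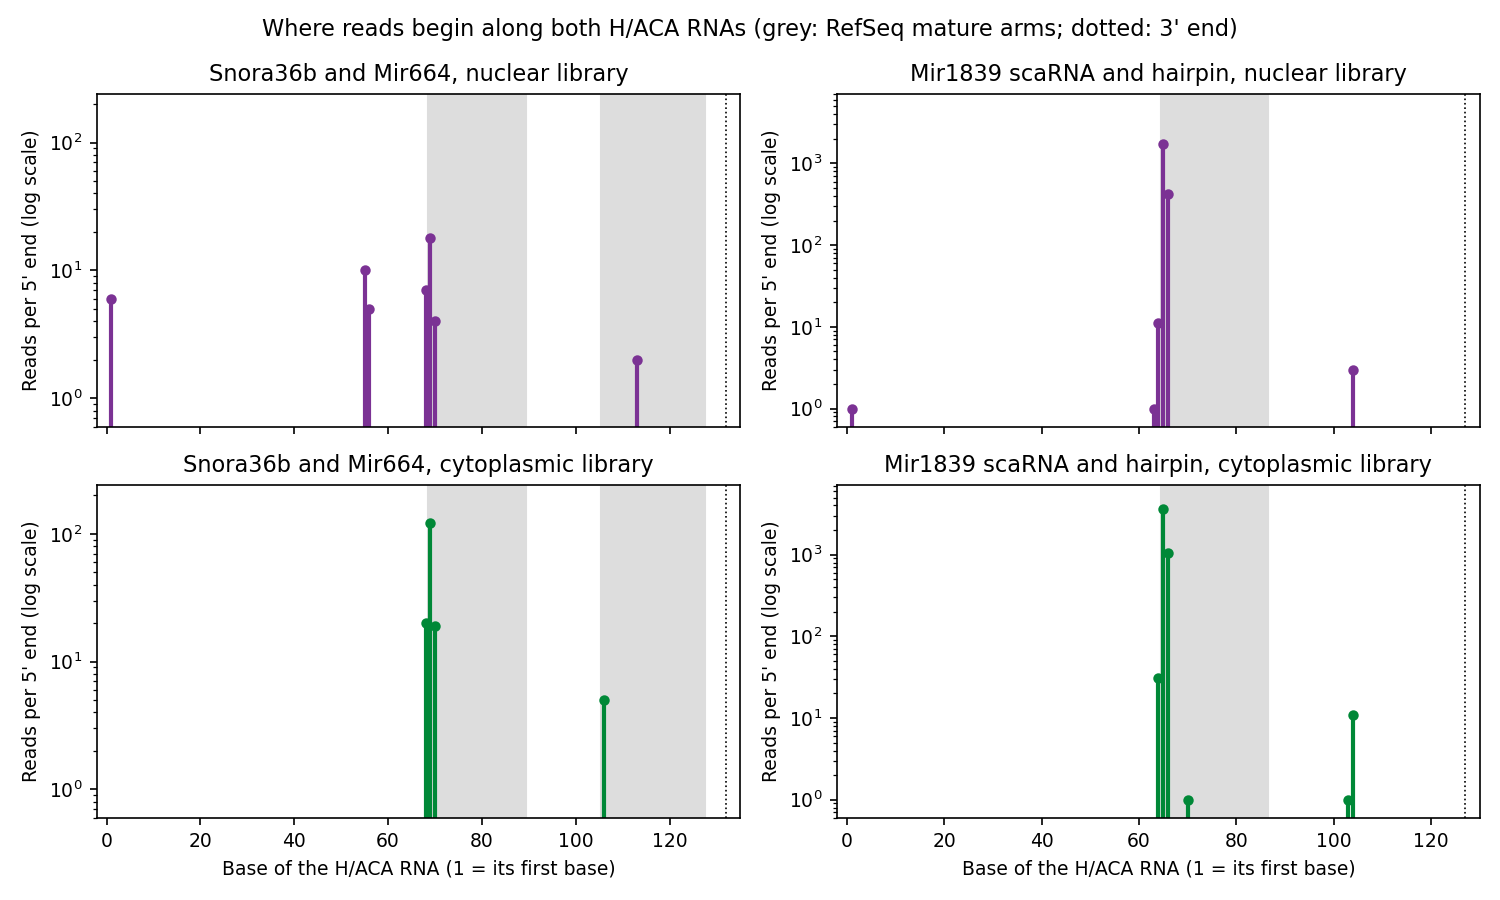
Reads by the base at which they begin (log scale) along Snora36b with Mir664 (left) and the Mir1839 scaRNA with its hairpin (right), for the nuclear library (top) and the cytoplasmic library (bottom); grey bands mark RefSeq mature arms. Nuclear reads of Snora36b begin at bases 1, 55 and 56 as well as at the arms, cytoplasmic reads only at the arms, and Mir1839 reads pile up at bases 65 and 66 in both libraries.

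miR-664-5p came in 3 registers. Reads that began at base 69, the RefSeq start, were 18 of 29 nuclear reads (62.1%, 42.3 to 79.3%) and 121 of 160 cytoplasmic reads (75.6%, 68.2 to 82.1%). Reads from base 68 were 7 nuclear (24.1%, 10.3 to 43.5%) and 20 cytoplasmic (12.5%, 7.81 to 18.6%), and reads from base 70 were 4 nuclear and 19 cytoplasmic. The intervals of both libraries overlap at each start, so no difference in register was detectable at this depth. Base 68 lies 1 nt upstream of the annotated Mir664 hairpin and inside Snora36b. Without the sequences that begin there, the ratio of miR-664-5p was 0.160 (0.0974 to 0.253), from 22 nuclear and 140 cytoplasmic reads. The sequences that held at least 5% of the reads are shown, since the register sets the seed.
miR-664-5p from base 69: ctggctggggaaaatgactgga
miR-664-5p from base 69, RefSeq length: ctggctggggaaaatgactgg
miR-664-5p from base 70: tggctggggaaaatgactgga
miR-664-5p from base 68: gctggctggggaaaatgactgga
miR-664-5p from base 68 to 89: gctggctggggaaaatgactgg
The first had 14 nuclear and 93 cytoplasmic reads, and the second, identical to the RefSeq miRNA, 3 and 25. The third had 3 nuclear and 15 cytoplasmic reads, the fourth 5 and 12, and the last 2 and 8. Each had fewer nuclear than cytoplasmic reads. The most abundant one reached base 90, 1 base past the RefSeq 3′ end, and held 56.6% of the reads of the arm. Among mature miRNAs of the RefSeq table, the seed of the RefSeq register was shared with no other. The seed from base 68, CUGGCUG, was shared with miR-3064-5p and miR-3085-3p, and that from base 70, GGCUGGG, with miR-3083-5p.

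The 3p arm of Mir664 was scarce. It had 2 nuclear and 5 cytoplasmic reads, a ratio of 0.408 with an interval that held 1 (0.0389 to 2.49). All 5 cytoplasmic reads began at base 106, the RefSeq start of miR-664-3p, and 4 of them carried unmatched 3′ bases. Both nuclear reads were instead a 20-nt sequence from base 113 that ended at the last base of Snora36b, so no nuclear read had the RefSeq start. The 5p arm made up 29 of 31 nuclear arm reads (93.5%, 78.6 to 99.2%) and 160 of 165 cytoplasmic arm reads (97.0%, 93.1 to 99.0%).
miR-664-3p with an unmatched base in capitals: tattcatttactccccagcctaA
Snora36b 3′ end: ttactccccagcctacacat
The first had 0 nuclear and 3 cytoplasmic reads, the second 2 and 0.

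Mir1839 gave more reads, nearly all from 1 arm. miR-1839-5p had 2166 nuclear reads and 4664 cytoplasmic reads, or 1083 and 2285 RPM, a ratio of 0.474 (0.450 to 0.499) and 2.11-fold higher in the cytoplasmic library. Its total of 6830 reads exceeded that of 193 of 229 other miRNA arms with at least 50 reads, and the total of 189 reads of miR-664-5p that of 87. The 3′ arm of Mir1839, taken as the second part of the hairpin, had 3 nuclear and 12 cytoplasmic reads, a ratio of 0.255 (0.0462 to 0.946), and was called lower on these 15 reads, as were 7.52% of 1529 small RNAs with no minimum of reads. The 5p arm made up 99.9% of nuclear arm reads (2166 of 2169) and 99.7% of cytoplasmic arm reads (4664 of 4676). Outside the arms the scaRNA had a single nuclear read, from its first base, and 0 of 4676 cytoplasmic reads, which allows a share of up to 0.0642%. A nuclear excess of fragments outside the arms, as for Snora36b, was therefore not detectable for Mir1839.

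Both 5p arms were called lower in the nuclear library, as were 27.3% of 231 miRNA arms and 18.3% of 394 annotated small RNAs measured with at least 50 reads. The call of miR-1839-5p rests on a ratio just past 2-fold. The median log2 ratio was -0.59 over the other miRNA arms, against -2.41 for miR-664-5p and -1.08 for miR-1839-5p. Of 229 other arms, 3 lay below miR-664-5p and 56 below miR-1839-5p. These other arms are all entries typed as miRNA, and only 189 of the 229 met the processed-arm pattern defined below. Among the 118 snoRNAs, 0.0% were called lower. The 12 other H/ACA snoRNAs with at least 50 reads had a median ratio of 22.0, with 11 higher and 0 lower, and the 4 other scaRNAs had ratios of 8.17 to 19.5. Scaled to the miRNA total, the ratio was 0.341 for miR-664-5p and 0.875 for miR-1839-5p, so that of miR-1839-5p was no longer past 2-fold.

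**Figure D2:**
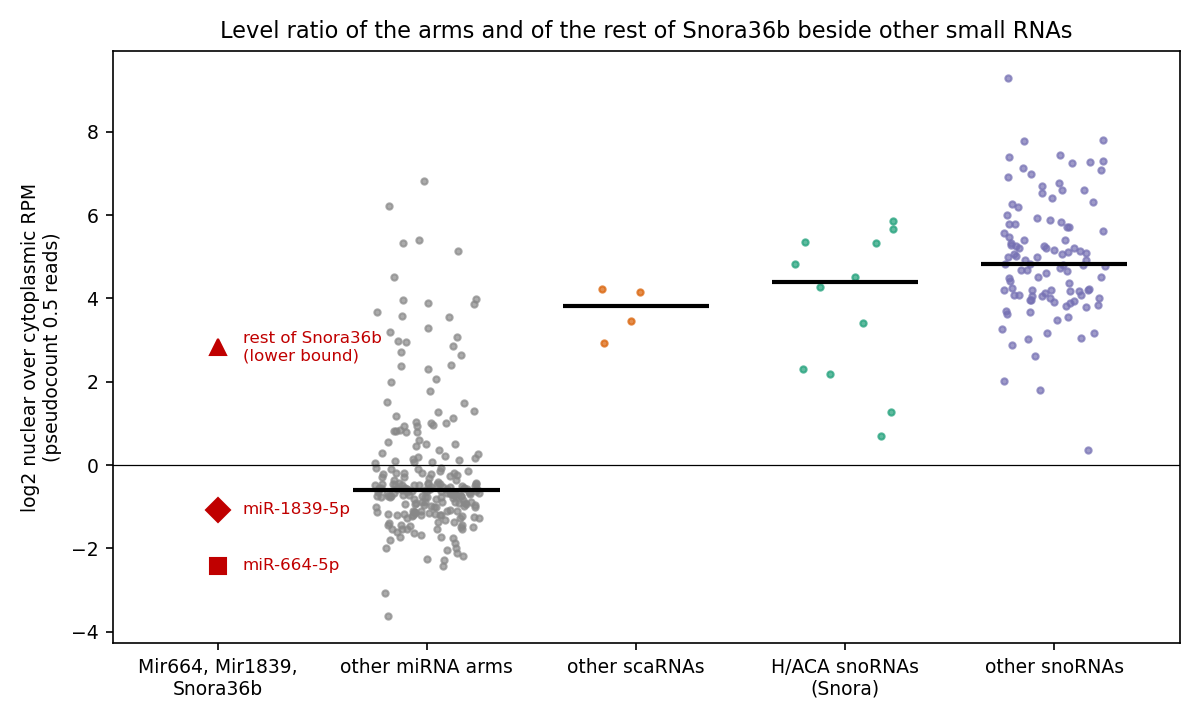
The log2 ratio of nuclear over cytoplasmic RPM of each small RNA with at least 50 reads (dots) by class, with the median of each class as a bar, and miR-664-5p, miR-1839-5p and the rest of Snora36b in red. Both 5p arms lie below 0 and the rest of Snora36b, at its lower bound of 7.14-fold, above 0, as are all H/ACA snoRNAs shown.

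Among other miRNA arms within 2-fold of its reads, 3 were named for each 5p arm as nearest in log2 ratio. For miR-664-5p (72 arms) they were miR-28a-3p with 33 nuclear and 147 cytoplasmic reads (log2 ratio -2.11), the 3p arm of Mir30b with 20 and 82 (-1.98) and miR-139-5p with 63 and 235 (-1.86). For miR-1839-5p (18 arms) they were miR-25-3p with 3568 nuclear and 7850 cytoplasmic reads (-1.11), miR-101b-3p with 3453 and 7973 (-1.18) and miR-181b-5p with 1693 and 3230 (-0.90). Likeness here rests on only 2 libraries.

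miR-1839-5p came mainly in 2 registers. Reads from base 65, the RefSeq start, were 1735 of 2166 nuclear reads (80.1%, 78.4 to 81.8%) and 3589 of 4664 cytoplasmic reads (77.0%, 75.7 to 78.2%). Reads from base 66 were 419 nuclear (19.3%, 17.7 to 21.1%) and 1043 cytoplasmic (22.4%, 21.2 to 23.6%). The intervals do not overlap at either start. With reads taken as independent, the share of the RefSeq register was thus higher in the nuclear library beyond counting error. The difference of 3.15 percentage points was exceeded by 6 of 88 other arms with at least 200 reads in each library, whose median difference was 0. The seeds of both registers, AGGUAGA and GGUAGAU, were shared with no other mature miRNA of the RefSeq table. The sequences that held at least 5% of its reads are shown, with an unmatched 3′ base in capitals.
miR-1839-5p from base 65: aaggtagatagaacaggtcttg
miR-1839-5p from base 65 with A: aaggtagatagaacaggtcttgA
miR-1839-5p from base 65 to 87: aaggtagatagaacaggtcttgt
miR-1839-5p from base 66: aggtagatagaacaggtcttg
The first, identical to the RefSeq mature miRNA, had 827 nuclear and 1701 cytoplasmic reads, a ratio of 0.496. The second had 459 and 836 (0.560), the third 236 and 572 (0.421) and the fourth 181 and 479 (0.386). All 4 had a ratio below 1.

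The 3′ ends of both arms differed. Unmatched 3′ bases were on 31.3% of miR-1839-5p reads over both libraries, more than on 186 of 229 other miRNA arms, whose median was 15.6%. They were on 2.12% of miR-664-5p reads, fewer than on 217 of the other arms. That share is close to the median of 2.04% over the 12 other H/ACA snoRNAs, but those entries pool all fragments of a gene. The 3p arm of Mir664, not in this share, had them on 57.1% of its 7 reads. In miR-1839-5p those that could be seen were mostly 1 to 3 A, on 650 of 2166 nuclear reads (30.0%, 28.1 to 32.0%) and 1234 of 4664 cytoplasmic reads (26.5%, 25.2 to 27.7%). T alone was on 0.877% of nuclear and 0.665% of cytoplasmic reads. Bases 87 to 89 of the precursor are themselves T, so an added T there counts as matched, these T shares are lower limits, and the shares of A and T cannot be compared. Reads whose last matched base was base 87, with or without unmatched bases after it, were 14.0% of nuclear and 17.0% of cytoplasmic reads. Terminal addition of A is known from many miRNAs and is made by non-canonical poly(A) polymerases. All unmatched bases together were 33.2% of nuclear and 30.4% of cytoplasmic reads, a difference of 2.86 percentage points that 10 of 88 other deeply read arms exceeded, with a median of -0.39.

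A limit applies to miR-664-5p. The base after its RefSeq 3′ end is itself an A in the precursor, so an A added there cannot be told apart from a longer cut. Reads whose last matched base was base 90, that A, were 23 of 29 nuclear reads (79.3%, 60.3 to 92.0%). They were 76.3% of 160 cytoplasmic reads (68.9 to 82.6%). An A beyond it would be seen, and was on 1 nuclear and 2 cytoplasmic reads. In miR-1839-5p the base after the RefSeq end is a T, so an added A shows as unmatched.

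**Figure D3:**
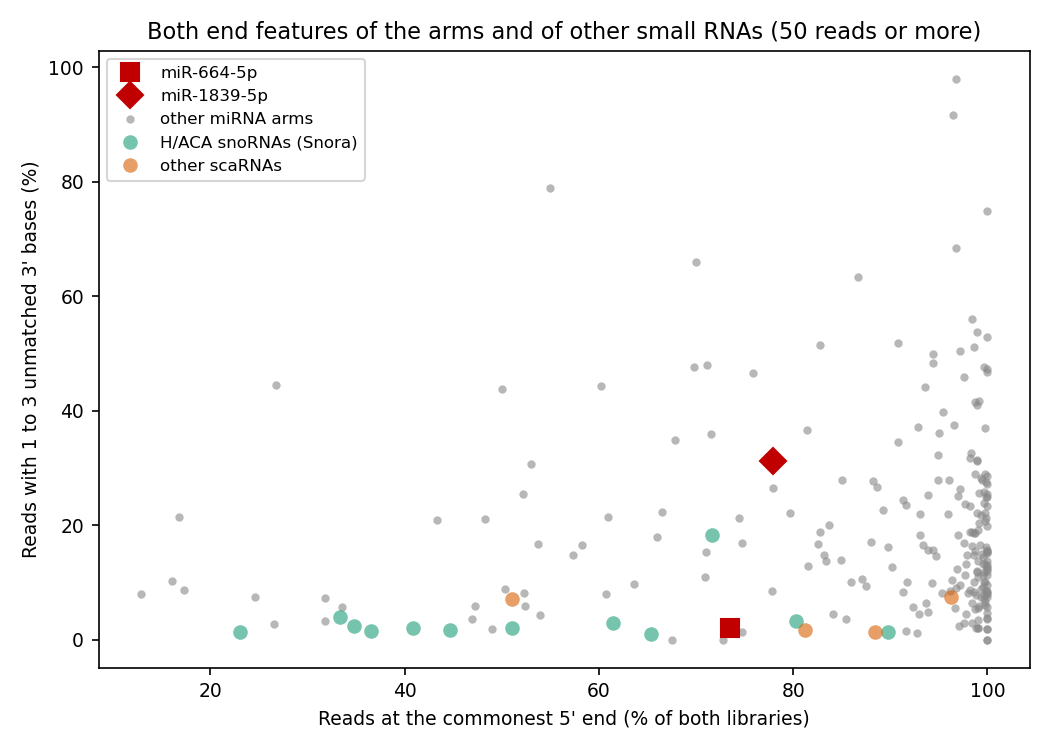
The share of reads at the commonest 5′ end (x axis) and with unmatched 3′ bases (y axis), over both libraries, for both 5p arms, other miRNA arms, H/ACA snoRNAs and other scaRNAs with at least 50 reads. At similar 5′ shares of 73.5% and 78.0%, 2.12% of miR-664-5p reads and 31.3% of miR-1839-5p reads had unmatched 3′ bases, against medians of 2.04% over the H/ACA snoRNAs and 15.6% over the other miRNA arms. The snoRNA and scaRNA entries pool all fragments of a gene, while an arm is only part of its precursor.

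Both arms had the length of miRNAs. Sequences of 20 to 24 nt made up all 189 reads of miR-664-5p and 98.7% of miR-1839-5p reads. The commonest length of miR-664-5p was 22 nt, with 16 of 29 nuclear reads (55.2%) and 102 of 160 cytoplasmic reads (63.8%). It was also 22 nt for miR-1839-5p, with 46.0% of nuclear and 45.9% of cytoplasmic reads, while 23 nt followed with 37.0% and 34.4%. The commonest 5′ end held 73.5% of miR-664-5p reads (66.7 to 79.7%) and 78.0% of miR-1839-5p reads. Both shares are below the median of 97.2% over other miRNA arms, with 41 arms below miR-664-5p and 47 below miR-1839-5p. They are above the median of 47.8% over the 12 other H/ACA snoRNAs and below that of 84.8% over the 4 other scaRNAs (51.0 to 96.3%). These units differ, since a snoRNA or scaRNA entry pools all fragments of its gene and an arm is only part of its precursor. With each distinct sequence counted once in place of its reads, the shares were 44.4% for miR-664-5p and 53.7% for miR-1839-5p.

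**Figure D4:**
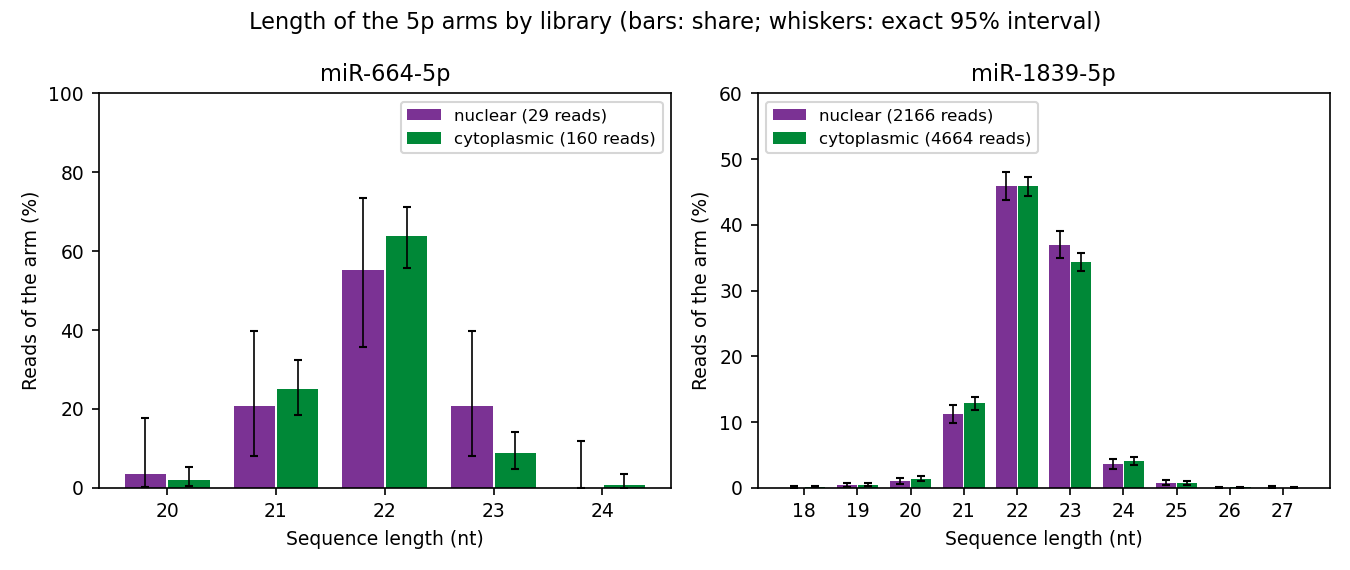
Share of reads by length for miR-664-5p (left) and miR-1839-5p (right) in the nuclear and the cytoplasmic library, with exact 95% intervals. Reads of 22 nt are the commonest in both libraries, and the 29 nuclear reads of miR-664-5p leave wide intervals.

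A processed-arm pattern, at least 50% of reads at a single 5′ end and at least 70% of reads of 20 to 24 nt, was met by both 5p arms. With each distinct sequence counted once, miR-664-5p fell short of the first part. The pattern was met by 189 of 229 other miRNA arms (82.5%), 3 of 12 other H/ACA snoRNAs and 1 of 4 other scaRNAs. The 3 were Snora7a with 281 nuclear and 12 cytoplasmic reads, Snora21 with 137 and 3, and Snora41 with 37 and 23. Snora41 was the H/ACA snoRNA with the lowest ratio, 1.64 (0.950 to 2.89), and 18.3% of its reads had unmatched 3′ bases, more than in any of the other 11. The other miRNA arms include entries of Snord43, typed as miRNA but named as a snoRNA. Its 5p entry met the pattern, with 6331 nuclear and 184 cytoplasmic reads (ratio 35.1). Its 3p entry, with 78 and 3 reads (26.5), did not. The snoRNA and scaRNA entries pool all fragments of a gene, while an arm is only part of its precursor. The place of the leading fragments also differed. The leading fragment lay 0 to 3 nt from an end of the H/ACA RNA in 11 of the 12 genes, at the 5′ end in 4 and at the 3′ end in 7. In the other, Snora57, it lay 50 nt from the nearest end. The leading sequence of miR-664-5p lay 42 nt and that of miR-1839-5p 41 nt from the nearest end. An arm is defined by its annotated position, so these distances were largely set in advance. Each sequence was also the most read member sequence of its precursor. For the other scaRNAs this distance was not measured.

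A list of miRNAs taken as made from mirtrons or otherwise without Drosha was drawn up from general knowledge with earlier results known. It had 5 entries with at least 50 reads, 2 higher and 0 lower in the nuclear library, against 15.6% higher and 27.3% lower among 231 miRNA arms. Whether each entry is made in that way was not tested. The 3p arm of Mir320 had 6288 nuclear and 9537 cytoplasmic reads (ratio 0.673), and miR-484 had 119 and 112 (1.08). miR-877-5p had 109 nuclear and 63 cytoplasmic reads (1.77). The 2 called higher were the 5p entries of Mir5107 (162 and 33 reads, 5.01) and Mir6236 (378 and 53, 7.28). The Mir6236 entry did not have the processed-arm pattern, with 16.0% of its reads at the commonest 5′ end and 57.1% of 20 to 24 nt. The 5p arms of Mir664 and Mir1839 each had a lower ratio than all 5 of these entries. That is a description only, since the members were chosen on these same levels.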

How the data were processed

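The authors' deposited table gives a level in RPM for each distinct sequence in each library. The submitters' processing notes name CASAVA and the build mm10 (GRCm38). For trimming, alignment and filters the sources used here give nothing. The columns were taken as nuclear and cytoplasmic from the last letter of their names. In both columns 100% of values were whole multiples of 1 read (0.500 RPM nuclear, 0.490 RPM cytoplasmic, tolerance 0.1 read), which gave whole reads.

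Sequences were matched to small RNA transcripts of GENCODE vM21, full length or with up to 3 unmatched 3′ bases and at least 18 nt matched. Small RNA genes took 51.0% of nuclear and 75.9% of cytoplasmic reads. None of the 149 member sequences matched another small RNA gene, and the 128 of Mir1839 also lie in a transcript of 2900076A07Rik. A member belonged to an arm that held the larger part of its matched bases, otherwise to the rest of the H/ACA RNA. Other sequences shared between small RNAs went to a miRNA first and then to the entry with most reads.

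Shares have exact Clopper-Pearson intervals at 95%, and ratios the same from the nuclear share of a product's reads. With 1 library a group, edgeR's quasi-likelihood test could not be fitted and no p-value is given. edgeR 4.0.16 (TMM) and DESeq2 1.42.0 (median of ratios) gave scaling factors only. The rule for calls was tested on simulated data with known fold changes. Folds were predicted with RNAfold 2.7.2 on default settings. The members and lists were chosen with earlier results of these data known. Named were all products of the members, sequences with at least 5% of the reads of an arm (of the scarce 3p arms only some are shown), the 3 arms of nearest ratio and the H/ACA snoRNAs with the processed-arm pattern. The shares of the ACA and H box motifs and the end distances were added after seeing the data, as were the single sequences shown for Snora36b and the 3p arm, and Snora57.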

Additional observations from a re-analysis of the deposited data

Results flagged for a closer look

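Sequences with 1 mismatch to a full-length arm sequence, and no match to a small RNA gene, entered no comparison. For miR-1839-5p they had 244 reads, 60 nuclear (3.98% of these and full-length matched reads, 3.05 to 5.10%) and 184 cytoplasmic (5.36%, 4.63 to 6.17%), above the limit that a count of 0 allows. Of them 118 reads, or 48.4%, had G in place of T, a share that 13 of 217 other miRNA arms exceeded, with a median of 16.7%. Those 13 arms had only 1 to 19 reads with a mismatch each. A minimum of 20 such reads, chosen after seeing the data, leaves out exactly these 13 arms. That no arm above the minimum exceeds the share of miR-1839-5p therefore follows from this choice. The 103 other arms that reach it had a median of 18.2% and a highest share of 44.9%. The most frequent single change was T5G in 22-nt sequences, counted from 1 at their 5′ end, with 5 nuclear and 39 cytoplasmic reads. Over both libraries 4.94% of reads of miR-1839-5p had 1 mismatch, against a median of 4.41% over other arms. For miR-664-5p they had 7 reads, 2 nuclear and 5 cytoplasmic.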

How the results depend on the processing

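No paired analysis was possible because each group has 1 library, and no library could be left out. Under the alternatives run, no ratio of the members turned its direction. The ratio of both miR-664 arms was 0.192 and moved beyond its interval only with scaling to the miRNA total (0.354). That of both miR-1839 arms was 0.473, and 0.414 with TMM factors, 0.440 with the median of ratios and 0.874 with the miRNA total. The value of the rest of Snora36b against the floor was 7.14-fold, and 1.36-fold for its most abundant sequence alone, since that has 4 reads. Scaling shifted all log2 ratios by -0.19 (TMM), -0.11 (median of ratios) and 0.88 (miRNA total). With each distinct sequence counted once, the commonest 5′ end held 44.4% of miR-664-5p and 53.7% of miR-1839-5p sequences, and with full-length matches only it held 76.6% of miR-1839-5p reads. Over all small RNAs 170 were higher and 72 lower. Without a minimum of reads these were 364 and 115, with a minimum of 200 reads 95 and 45, and 157 were lower by the interval alone and 19 under the miRNA total. A restriction to sequences inside the annotated miRNA hairpins was chosen after seeing the data. The 29 nuclear reads of miR-664-5p and 21 of the rest of Snora36b limit what can be told apart.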

Other observations

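The host genes gave few other fragments. Transcripts of Rab3gap2 had 9 nuclear and 4 cytoplasmic reads in 11 sequences outside the members, by full-length matches. No sequence outside the members matched the 8 transcripts of 2900076A07Rik, while miR-1839-5p within it had 2166 nuclear and 4664 cytoplasmic reads.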
